A study of Saccharomyces cerevisiae with 9 samples.

Results

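The genes described here are 34 nuclear genes of budding yeast (Saccharomyces cerevisiae) that encode subunits of respiratory complexes II to V, with INH1, the inhibitor of complex V, among them. They were taken as the probe sets annotated to a fixed list of gene names. No measured value entered that rule, but the list was made with earlier results of these data known. The members make up 4 genes of complex II, 9 of complex III, 7 of complex IV and 14 of complex V out of 5396 genes tested. Each of the 34 had 1 probe set on the array, and each passed the filter on low signal. BY4741, a haploid laboratory strain of mating type a, was grown to log phase in rich glucose medium (YPD), washed and held in distilled water. The 3 groups were cells kept frozen at -30 °C for 24 h and thawed for 10 min in a water bath at 30 °C, cells kept frozen for 48 h and thawed in the same way, and unfrozen cells that went through the same wash and suspension in water. Each group had 3 arrays of poly(A)-enriched RNA.

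Complex II (succinate dehydrogenase) passes electrons from succinate to ubiquinone, complex III (the cytochrome bc1 complex) passes them on to cytochrome c, and complex IV (cytochrome c oxidase) passes them to oxygen. Complexes III and IV move protons across the inner membrane as they do so, and complex V (the ATP synthase) lets the protons flow back to make ATP. Budding yeast has no proton-pumping complex I, and on glucose it keeps many respiratory genes below their level on non-fermentable carbon sources. The catalytic core of complex IV, cytochrome b of complex III and the membrane rotor ring of complex V are made from mitochondrial DNA, and those genes are not analysed here.

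Some labels call the 3 arrays of a group independent and others name 2 independent experiments. The p-values therefore cover only the variation seen among the arrays, part of which may be technical. The replicate 3 frozen arrays at 24 h and 48 h were the brightest, with median deposited signals over S. cerevisiae probe sets of 679 and 726, where the other arrays had 201 to 392. The median scaled log2 signal of 17 ribosomal RNA control probe sets was 7.94 to 10.43 in frozen 24 h arrays, 7.64 to 9.80 in frozen 48 h arrays and 5.45 to 7.02 in unfrozen arrays, higher in each frozen array than in any unfrozen one. With this signal as a covariate 0 members were called at either time, and their median difference from unfrozen was 0.11 at 24 h and 0.05 at 48 h. Because the signal separates frozen from unfrozen arrays, this covariate overlaps with the comparison itself. Wherever it is used, here and below, a lack of calls or a changed difference cannot be told apart from a loss of the freezing contrast. Probe sets of URA3 and MET17, which are deleted in this strain, lay at 0.68 and 2.04 on the scaled log2 scale, under the background threshold of 2.21, and that of LEU2, also deleted, lay at 2.62. HIS3, of which the strain's allele lacks only an internal part, lay at 9.55, and where its probes fall relative to that part is not given in the sources used here. Of the genes specific to 1 mating type, 6 of a cells lay at 9.57 to 12.20 and 4 of alpha cells at 2.42 to 7.71. In bulk RNA of this kind, fewer cells with intact RNA and less RNA per cell cannot be told apart.

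In the main setting, with arrays shifted to a common median, none of the respiratory subunit genes passed the test at 24 h or 48 h. The estimated differences from unfrozen cells stayed within 0.57 of 0 on the log2 scale in that setting. Under alternative settings QCR7 reached -0.91 and SDH1 0.98 at 48 h. At 24 h against unfrozen, limma called 0 of 34 members at an adjusted p under 0.05, where it called 1.00% of all genes. The smallest adjusted p was 0.573, that of COX6, and 0 of 34 had an unadjusted p under 0.05, against 10.7% of all genes. At 48 h against unfrozen it called 0 of 34, where it called 2.91% of all genes. The smallest adjusted p was 0.302, again that of COX6, which was the 1 member with an unadjusted p under 0.05, against 16.4% of all genes. At 48 h against 24 h it called 0 of 34 members and 0% of all genes, with 0 members and 0.408% of genes at an unadjusted p under 0.05.

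Each difference is a mean log2 signal in frozen arrays minus that in unfrozen arrays, so that 1 is a doubling of the signal. At 24 h the members' differences ran from -0.48 (QCR6) to 0.16 (COX12) with a median of -0.12, beside a median of -0.02 over all genes. At 48 h they ran from -0.57 (QCR7) to 0.56 (SDH1) with a median of -0.14, beside -0.03 over all genes. Estimates lay below 0 for 24 of 34 members at 24 h and for 23 of 34 at 48 h, against 52.7% and 53.0% of all genes. Without any scaling, which shifts all genes of an array alike, the members' medians were 0.18 at 24 h and 0.28 at 48 h, beside 0.28 and 0.40 over all genes. The members' median minus that of all genes was -0.10 at 24 h and -0.11 at 48 h. It was -0.07 and -0.06 after quantile normalization, and -0.06 and -0.00 without the replicate 3 arrays of both frozen groups, a choice made after the data were seen. The 95% interval lay within -1 to 1 for 25 of 34 members at 24 h and 26 of 34 at 48 h, against 71.2% and 67.1% of all genes, so for these members both a doubling and a halving of the signal lie outside the interval.

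**Figure D1:**
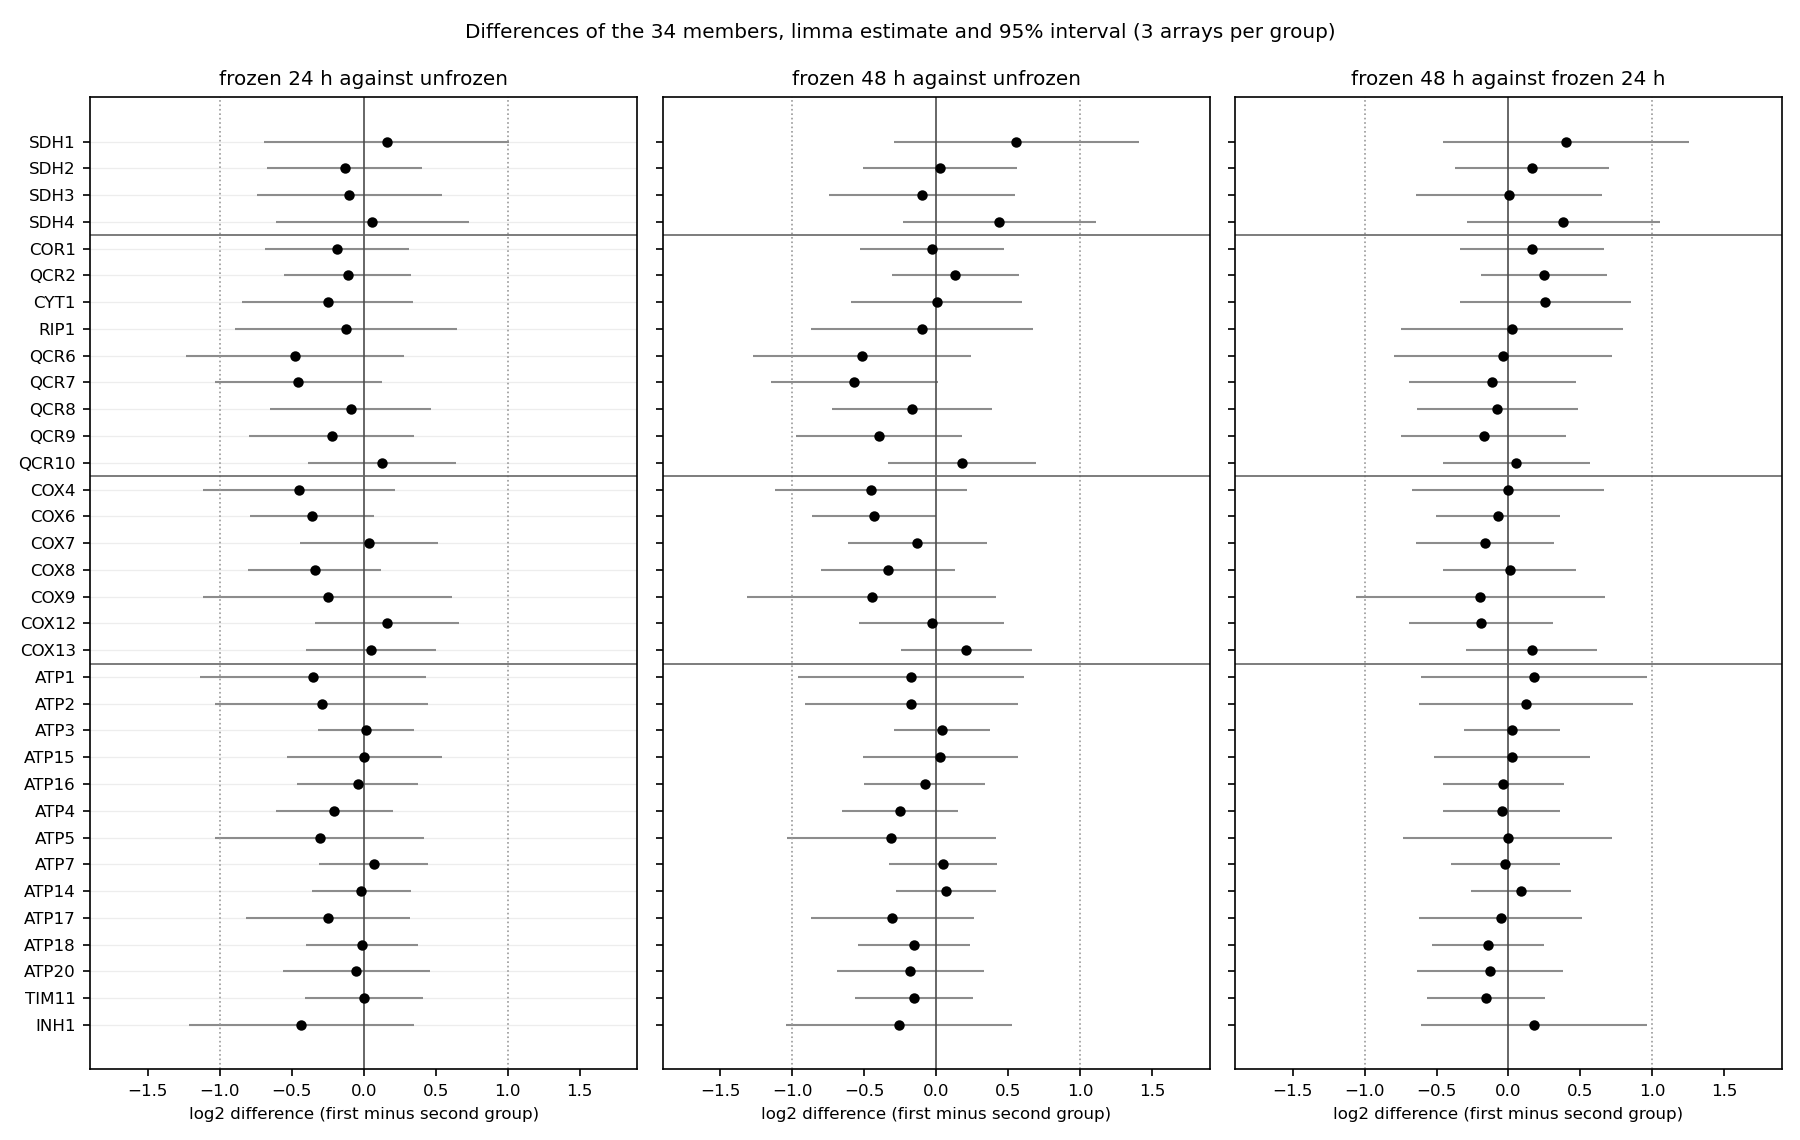
Log2 differences of the 34 members in the 3 comparisons (points, limma estimates; bars, 95% intervals; n = 3 arrays per group; dotted lines at -1 and 1). At 24 h against unfrozen every interval includes 0, and at 48 h against unfrozen COX6 alone has an interval (-0.86 to -0.00) that just misses it.

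Complex II has a flavoprotein (SDH1) and an iron-sulfur subunit (SDH2) that carry the electrons, and 2 subunits (SDH3 and SDH4) that anchor them in the inner membrane. SDH4 had scaled log2 signals of 10.03, 10.23 and 9.80 in frozen 24 h arrays and 11.05, 10.52 and 9.64 in frozen 48 h arrays, against 9.95, 9.94 and 10.00 in unfrozen arrays. Frozen 48 h replicates 1 and 2 stood above every unfrozen array and replicate 3 below every one. The difference was 0.44 ± 0.30 at 48 h (SE, n = 3 per group, limma adjusted p = 0.522) and 0.06 ± 0.30 at 24 h (adjusted p = 0.958). Without the replicate 3 arrays of both frozen groups, SDH4 stood at 0.82 ± 0.19 and passed at 48 h (limma adjusted p = 0.0481), the only call of any member over 25 alternatives of that comparison. That setting was chosen after the data were seen, and it leaves out the frozen 48 h array in which SDH4 lay below the unfrozen arrays.

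SDH1 had signals of 7.83, 8.95 and 7.96 in frozen 24 h arrays and 8.98, 9.16 and 7.80 in frozen 48 h arrays, against 8.11, 8.35 and 7.82 in unfrozen arrays. Its frozen arrays split in the way of SDH4 at 48 h, and at 24 h replicate 2 alone was above the unfrozen arrays. The difference was 0.56 ± 0.38 at 48 h (95% interval -0.29 to 1.41, limma adjusted p = 0.521) and 0.16 ± 0.38 at 24 h (adjusted p = 0.916). SDH2 had signals of 9.45, 9.96 and 9.36 in frozen 24 h arrays, against 9.82, 9.72 and 9.63 in unfrozen arrays, with 1 frozen array above and 2 below all unfrozen ones. It differed by -0.13 ± 0.24 at 24 h and 0.03 ± 0.24 at 48 h, and SDH3 by -0.10 ± 0.29 at both times. The median over the 4 genes was -0.02 at 24 h and 0.23 at 48 h.

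Complex III joins 2 core proteins (COR1 and QCR2), the redox subunits cytochrome c1 (CYT1) and the Rieske iron-sulfur protein (RIP1), and small subunits (QCR6 to QCR10) that help the complex assemble or hold its shape. QCR7 had signals of 10.93, 11.56 and 11.04 in frozen 24 h arrays and 10.80, 11.57 and 10.81 in frozen 48 h arrays, against 11.72, 11.69 and 11.48 in unfrozen arrays. In both frozen groups replicates 1 and 3 lay below all unfrozen arrays while replicate 2 lay among them. The difference was -0.57 ± 0.26 at 48 h (95% interval -1.15 to 0.01, limma adjusted p = 0.313) and -0.46 ± 0.26 at 24 h (adjusted p = 0.591).

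QCR6, the acidic hinge subunit, had signals of 8.80, 10.09 and 10.05 in frozen 24 h arrays and 9.13, 9.93 and 9.77 in frozen 48 h arrays, against 10.30, 10.12 and 9.95 in unfrozen arrays. At 48 h the groups did not overlap, though replicate 2 came close to the lowest unfrozen array, and at 24 h replicate 1 alone stood below. The difference was -0.52 ± 0.34 at 48 h (limma adjusted p = 0.501) and -0.48 ± 0.34 at 24 h (adjusted p = 0.705), and without frozen 24 h replicate 1 the 24 h difference was -0.05. QCR9 had signals of 10.42, 11.11 and 10.43 in frozen 48 h arrays, against 11.17, 11.10 and 10.87 in unfrozen arrays. Replicates 1 and 3 were again below the unfrozen arrays and replicate 2 among them, with a difference of -0.40 ± 0.26 (limma adjusted p = 0.494).

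The other subunits of complex III differed less. COR1 stood at -0.19 ± 0.22 at 24 h and -0.03 ± 0.22 at 48 h, and QCR2 at -0.11 ± 0.20 and 0.13 ± 0.20. CYT1 stood at -0.25 ± 0.27 at 24 h and 0.00 ± 0.27 at 48 h, and RIP1 at -0.12 ± 0.35 and -0.10 ± 0.35. QCR8, which contacts cytochrome b, stood at -0.09 ± 0.25 and -0.17 ± 0.25, and QCR10 at 0.12 ± 0.23 and 0.18 ± 0.23. The median over the 9 genes was -0.19 at 24 h and -0.10 at 48 h, and over the 5 small subunits alone it was -0.22 and -0.40.

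The nuclear subunits of complex IV surround its mitochondrially encoded core. COX6 had signals of 10.12, 10.60 and 10.45 in frozen 24 h arrays and 10.11, 10.57 and 10.26 in frozen 48 h arrays, against 10.90, 10.75 and 10.59 in unfrozen arrays. The 48 h arrays lay below all unfrozen arrays, while at 24 h replicate 2 overlapped them. The difference was -0.43 ± 0.19 at 48 h (95% interval -0.86 to -0.00, limma unadjusted p = 0.0489, adjusted p = 0.302) and -0.36 ± 0.19 at 24 h (adjusted p = 0.573).

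COX8 had signals of 10.18, 10.56 and 10.15 in frozen 24 h arrays and 10.11, 10.65 and 10.15 in frozen 48 h arrays, against 10.86, 10.60 and 10.44 in unfrozen arrays. Replicates 1 and 3 of each frozen group were below the unfrozen arrays and replicate 2 was among them. The differences were -0.33 ± 0.21 at 48 h and -0.34 ± 0.21 at 24 h (limma adjusted p = 0.473 and 0.626). COX4, which binds zinc, stood at -0.45 ± 0.30 at both times, and COX9 at -0.45 ± 0.39 at 48 h and -0.25 ± 0.39 at 24 h. COX7 stood at -0.13 ± 0.22 at 48 h and 0.04 ± 0.22 at 24 h. COX12 and COX13, which sit at the edge of the complex, stood at -0.03 ± 0.23 and 0.21 ± 0.20 at 48 h and at 0.16 ± 0.23 and 0.05 ± 0.20 at 24 h. The median over the 7 genes was -0.33 at 48 h and -0.25 at 24 h. Without scaling, which shifts all genes alike, these medians were 0.09 and 0.04, beside 0.40 and 0.28 over all genes.

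In complex V the F1 head (ATP1, ATP2, ATP3, ATP15 and ATP16) makes ATP, the peripheral stalk (ATP4, ATP5, ATP7 and ATP14) keeps it from turning with the rotor, and ATP17, ATP18, ATP20 and TIM11 lie in or at the membrane, where ATP20 and TIM11 help the enzyme to dimerise. ATP4 had signals of 10.93, 10.99 and 10.64 in frozen 24 h arrays and 10.94, 10.94 and 10.55 in frozen 48 h arrays, against 11.00, 11.12 and 11.06 in unfrozen arrays. No frozen array reached the lowest unfrozen one, and replicate 3 was the lowest in each frozen group. The differences did not pass the test, at -0.25 ± 0.18 at 48 h and -0.20 ± 0.18 at 24 h (limma adjusted p = 0.542 and 0.768). Without scaling they were 0.17 and 0.09, beside medians of 0.40 and 0.28 over all genes.

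ATP17 had signals of 10.33, 10.70 and 10.09 in frozen 48 h arrays, against 11.11, 10.55 and 10.37 in unfrozen arrays, and the groups overlapped with a difference of -0.30 ± 0.25 (limma adjusted p = 0.585). INH1, which stops the ATP synthase from running backwards and breaking down ATP, had signals of 6.13, 7.33 and 7.42 in frozen 24 h arrays and 7.24, 7.38 and 6.79 in frozen 48 h arrays, against 7.81, 7.37 and 6.99 in unfrozen arrays. The groups overlapped, with 1 low array in each frozen group that was replicate 3 at 48 h and replicate 1 at 24 h. The difference was -0.26 ± 0.35 at 48 h and -0.43 ± 0.35 at 24 h (limma adjusted p = 0.757 and 0.749), and without frozen 24 h replicate 1 the 24 h estimate was -0.02.

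The F1 genes for the alpha and beta subunits, ATP1 and ATP2, stood at -0.18 ± 0.35 and -0.17 ± 0.33 at 48 h and at -0.35 ± 0.35 and -0.29 ± 0.33 at 24 h. ATP3, the gamma subunit that turns inside the head, had a range of 0.22 over the 9 arrays, which is smaller than that of all but 0.148% of genes tested. It differed by 0.04 ± 0.15 at 48 h and 0.02 ± 0.15 at 24 h. ATP15 and ATP16, the epsilon and delta subunits of the same rotor stalk, stood at 0.03 ± 0.24 and -0.08 ± 0.19 at 48 h. The stalk genes ATP7 and ATP14 also had narrow ranges of 0.36 and 0.35, at percentiles 3.11 and 2.63 of all genes, while ATP1 and ATP2 ranged over 1.46 and 1.38. The ranges of ATP3, ATP7 and ATP14 were picked out after they were seen. The median over the 14 genes was -0.16 at 48 h and -0.05 at 24 h.

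**Figure D2:**
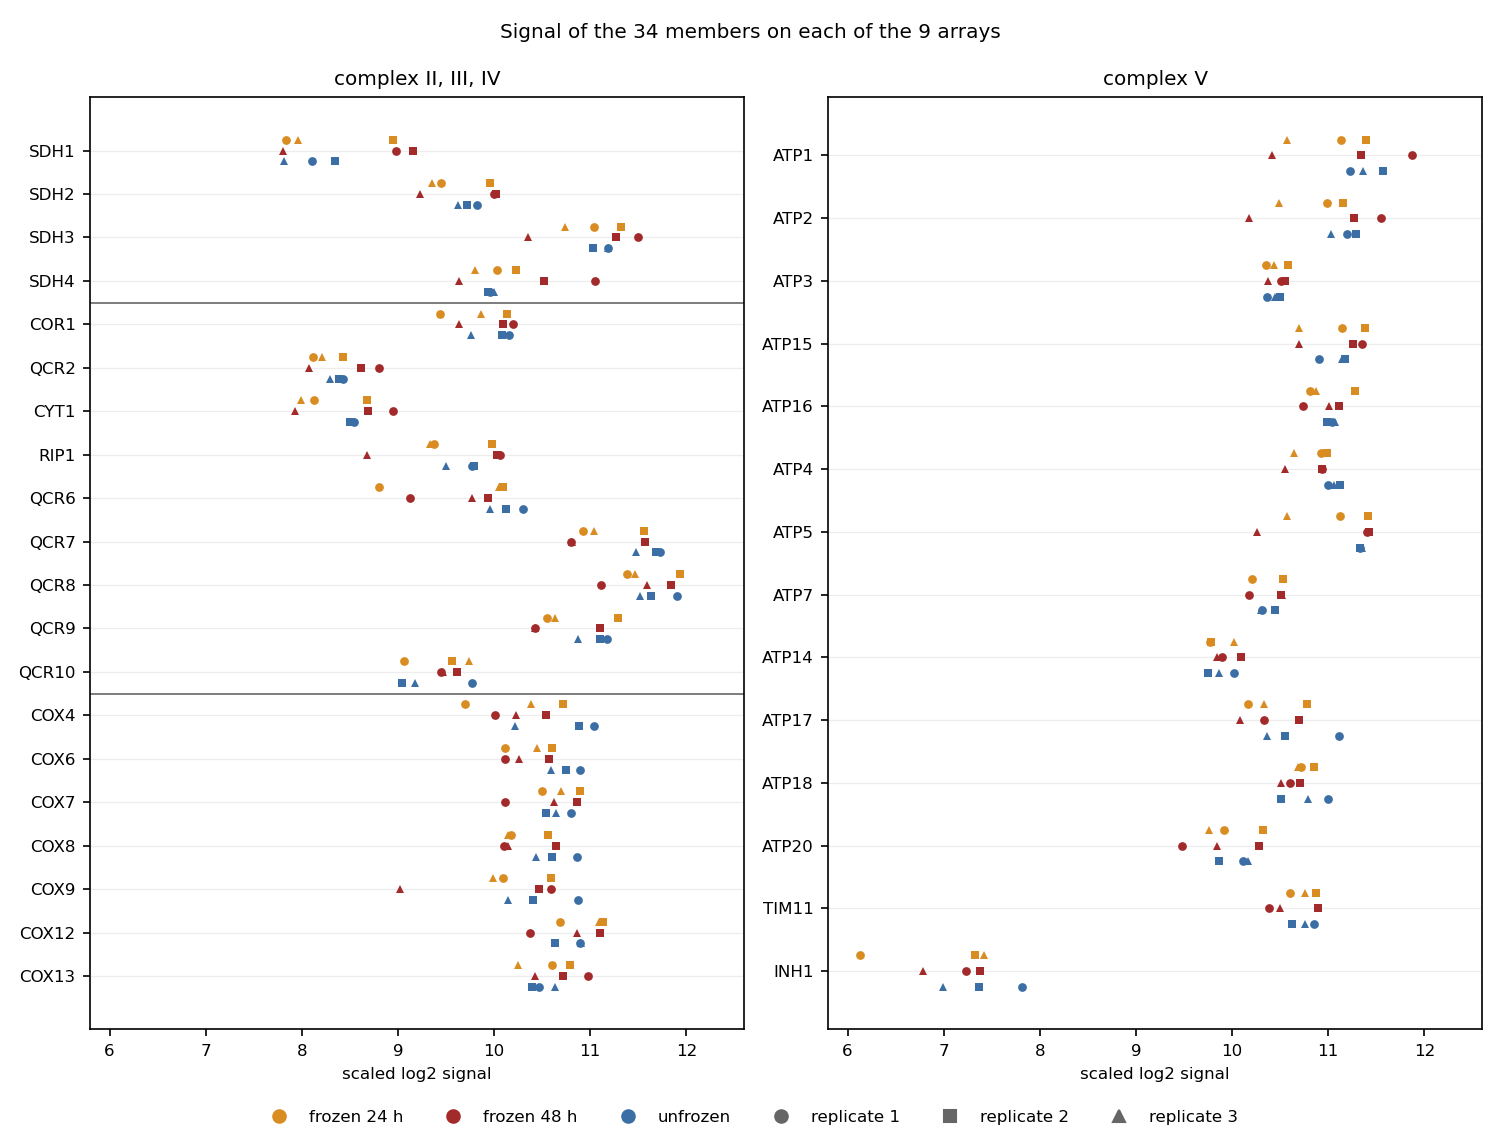
Scaled log2 signal of each member on each of the 9 arrays (colour, group; marker shape, replicate number; lines divide complexes). ATP3, ATP7 and ATP14 keep within 0.22 to 0.36, and frozen 48 h replicate 3 is the lowest of the 9 arrays for each of the 4 complex II genes.

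Arrays of 1 frozen group differed among themselves in the members' level. Their median deviation from the unfrozen mean was -0.25, 0.14 and -0.27 in replicates 1, 2 and 3 of the 24 h group and -0.05, 0.12 and -0.37 in those of the 48 h group, against 0.09, -0.01 and -0.06 in the unfrozen arrays. Replicate 2 of each frozen group lay above the unfrozen arrays, and replicate 3 of each, with 24 h replicate 1, below them. Of the 34 members, 31, 8 and 27 lay below the unfrozen mean in frozen 24 h replicates 1, 2 and 3, and 17, 9 and 31 did so in frozen 48 h replicates 1, 2 and 3. Over all genes the share below the unfrozen mean was 44.5% to 55.0% in the 6 frozen arrays. Frozen 48 h replicate 3 was the lowest of the 9 arrays for 14 members (41.2%, against 22.8% of all genes) and frozen 48 h replicate 1 for 11 (32.4%, against 22.9%).

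The replicate 3 frozen arrays had the highest deposited signal, so the differences were also taken within replicates 1 and 2 and within replicate 3. With replicates 1 and 2 alone the members' median difference was -0.10 at 24 h and -0.03 at 48 h, beside 0.01 and 0.02 over all genes. With replicate 3 alone it was -0.15 and -0.28, beside -0.08 and -0.09 over all genes. The complexes did not all move one way between these arrays. For complex II the 48 h median was 0.56 in replicates 1 and 2 and -0.38 in replicate 3. For complex IV it was -0.18 and -0.21 at 48 h over the same arrays, and at 24 h it was -0.29 and -0.14.

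Signals of the members, like those of all genes, were also more spread between frozen arrays. Their median SD between arrays was 0.31 at 24 h and 0.37 at 48 h, against 0.15 in unfrozen arrays, and over all genes it was 0.24 and 0.36, against 0.16. The SD was above the unfrozen one for 30 of 34 members at 24 h (88.2%, against 65.7% of all genes) and for 28 of 34 at 48 h (82.4%, against 79.1%). In complex II the median SD was 0.66 at 48 h, against 0.09 in unfrozen arrays. The 3 frozen 24 h arrays stood apart from the 3 unfrozen ones for 1 of 34 members (ATP4, lower), where this held for 23.9% of all genes and, on the lower side, for 11.6%. At 48 h the arrays stood apart for 3 of 34 (QCR6, COX6 and ATP4, all lower), where this held for 22.5% of all genes and, on the lower side, for 10.6%.

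**Figure D3:**
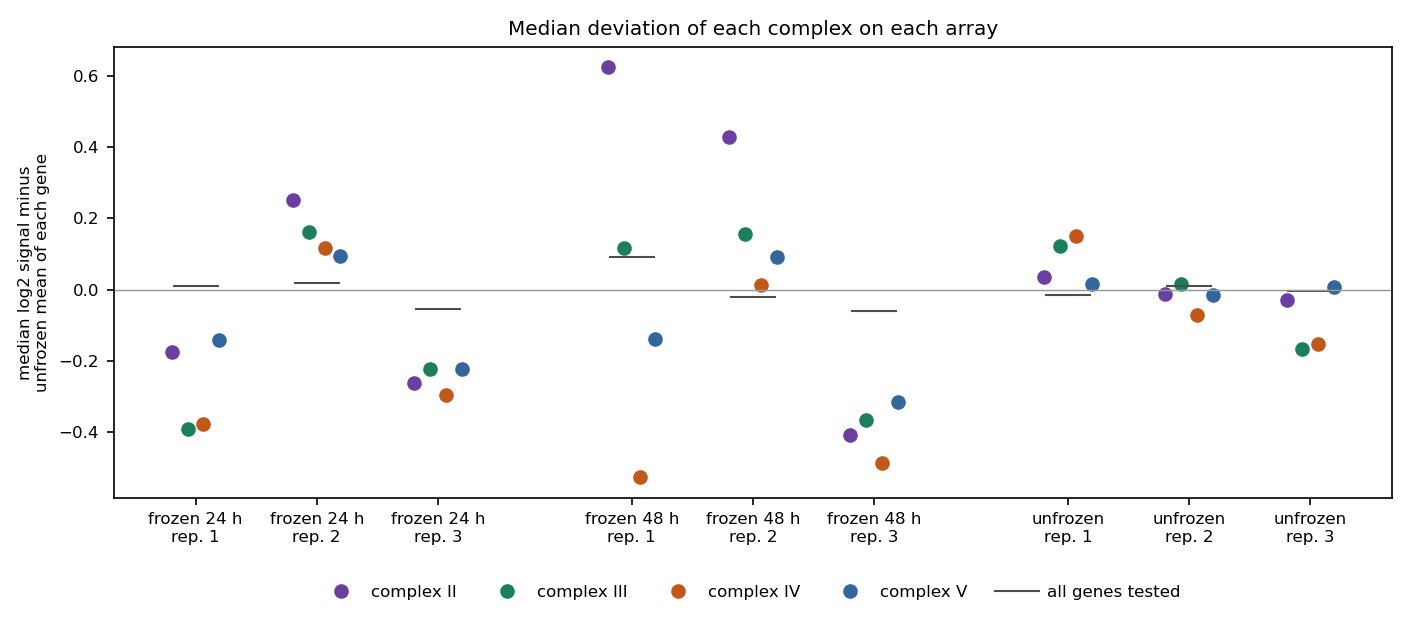
Median over each complex of the scaled log2 signal minus each gene's unfrozen mean, by array (points, complexes; dashes, the median of all genes tested). Complex II stands at 0.62 in frozen 48 h replicate 1 where complex IV stands at -0.53, and all 4 complexes lie below 0 in frozen 24 h replicates 1 and 3 and frozen 48 h replicate 3.

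In frozen 48 h replicate 1 the median deviation from the unfrozen mean was 0.62 in complex II, 0.12 in complex III, -0.53 in complex IV and -0.14 in complex V. Within complex III it was 0.32 for the core proteins COR1 and QCR2 and -0.63 for the small subunits. The same array was the highest of the 9 for 2 genes of complex II, 4 of complex III, 1 of complex IV and 2 of complex V (26.5% of members, against 33.3% of all genes). It was the lowest for 0 of complex II, 3 of complex III, 4 of complex IV and 4 of complex V.

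The comparison of 48 h with 24 h asks whether longer storage adds to the change. The members' median difference, 48 h minus 24 h, was -0.00, beside 0.01 over all genes, with 17 of 34 above 0 and values from -0.20 (COX9) to 0.40 (SDH1). The 95% interval lay within -1 to 1 for 31 of 34 members, against 83.0% of all genes. Arrays of the 2 groups did not overlap for 0 of 34 members, where this held for 2.89% of all genes. SDH1 and SDH4 differed by 0.40 ± 0.38 and 0.38 ± 0.30, and limma gave an adjusted p of 1.00 for both.

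The 2 smallest unadjusted p in each of the other complexes belonged to QCR2 and CYT1, COX12 and COX13, and TIM11 and ATP18. QCR2 had signals of 8.80, 8.62 and 8.08 in frozen 48 h arrays, against 8.12, 8.43 and 8.22 in frozen 24 h arrays, and a difference of 0.25 ± 0.20. CYT1 had 8.94, 8.69 and 7.92 in frozen 48 h arrays, against 8.12, 8.68 and 7.99 in frozen 24 h arrays, and a difference of 0.26 ± 0.27. For both, replicates 1 and 2 at 48 h were at or above the highest 24 h array and replicate 3 was below all of them. COX12 had 10.37, 11.10 and 10.86 in frozen 48 h arrays, against 10.68, 11.13 and 11.10 in frozen 24 h arrays, and a difference of -0.19 ± 0.23. COX13 had 10.98, 10.72 and 10.43 in frozen 48 h arrays, against 10.60, 10.79 and 10.25 in frozen 24 h arrays, and a difference of 0.16 ± 0.20. Both overlapped between the times, with replicate 1 lowest for COX12 and highest for COX13 at 48 h. TIM11 had 10.38, 10.89 and 10.50 in frozen 48 h arrays, against 10.60, 10.88 and 10.76 in frozen 24 h arrays, and a difference of -0.16 ± 0.18. ATP18 had 10.61, 10.71 and 10.51 in frozen 48 h arrays, against 10.72, 10.85 and 10.69 in frozen 24 h arrays, and a difference of -0.14 ± 0.17. These 2 also overlapped, with replicate 2 the highest array at each time.

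Same-numbered frozen arrays deviated together over all genes, so each number also gives a difference of its own. The members' median 48 h minus 24 h difference was 0.25 for number 1, -0.03 for number 2 and -0.17 for number 3, where all genes had 0.08, -0.03 and 0.00. For number 1, 22 of 34 members were higher at 48 h, against 3051 of 5396 genes tested. SDH1, SDH4 and INH1 were higher by more than 1 (1.14, 1.02 and 1.11), where 276 of 5396 genes differed by more than 1 in either direction. For number 3, 29 of 34 members were lower at 48 h, against 2654 of 5396 genes, with INH1 at -0.63 and COX9 at -0.97. The 4 complex II genes were all higher at 48 h for number 1 and all lower for number 3. The sign was the same in the 3 numbers for 6 of 34 members (17.6%, against 23.7% of all genes). These 6, QCR9, COX6, COX7, COX12, ATP7 and ATP18, were lower at 48 h, where 608 of 5396 genes were lower in all 3 numbers. Some of these values were near 0, with ATP7 at -0.037, -0.027 and -0.004 for numbers 1, 2 and 3. With the number as a block on the frozen arrays, limma again called 0 of 34 members (smallest adjusted p = 0.953).

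**Figure D4:**
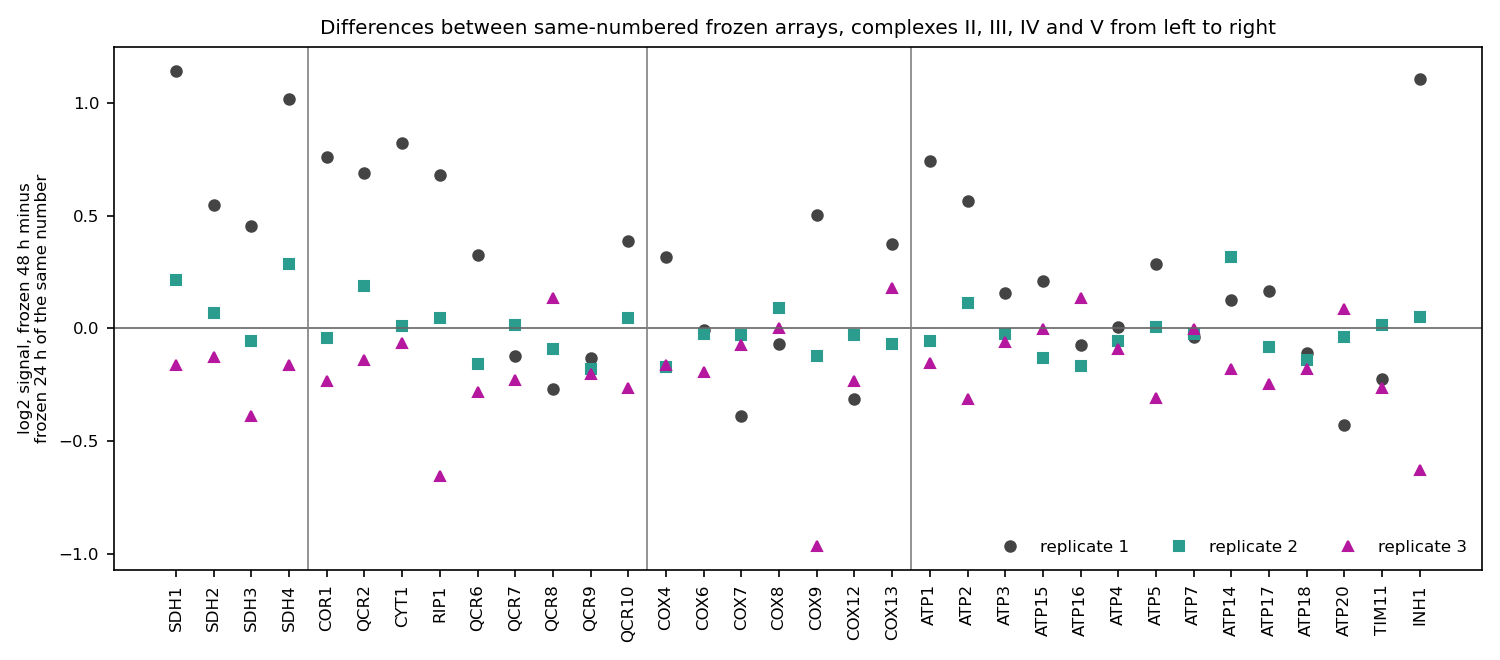
Scaled log2 signal of each member in the frozen 48 h array minus that in the frozen 24 h array of the same replicate number. Number 1 gives 1.14 for SDH1, 1.02 for SDH4 and 1.11 for INH1. Number 3 gives values below 0 for 29 of 34 members, against 2654 of 5396 genes tested.

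RIP1 is also read by 3 control probe sets, placed toward the 5' end, the middle and the 3' end of its transcript, which were not used in the tests. The 5' set had signals of 8.51, 9.06 and 8.26 in frozen 24 h arrays and 8.97, 9.03 and 7.83 in frozen 48 h arrays, against 9.0, 8.79 and 8.68 in unfrozen arrays. The 3' set had 8.66, 9.31 and 8.63 in frozen 24 h arrays and 9.37, 9.27 and 8.42 in frozen 48 h arrays, against 9.16, 8.76 and 8.80 in unfrozen arrays. In both sets replicate 3 was the lowest of each frozen group, as in the main RIP1 probe set. The mean differences at 48 h were -0.22 for the 5' set, -0.03 for the middle set and 0.11 for the 3' set, and at 24 h they were -0.22, -0.20 and -0.04. The SDs between frozen 48 h arrays were 0.68, 0.72 and 0.52. The mean differences of these sets were not tested, so the sign at 48 h is not established for any set.

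**Figure D5:**
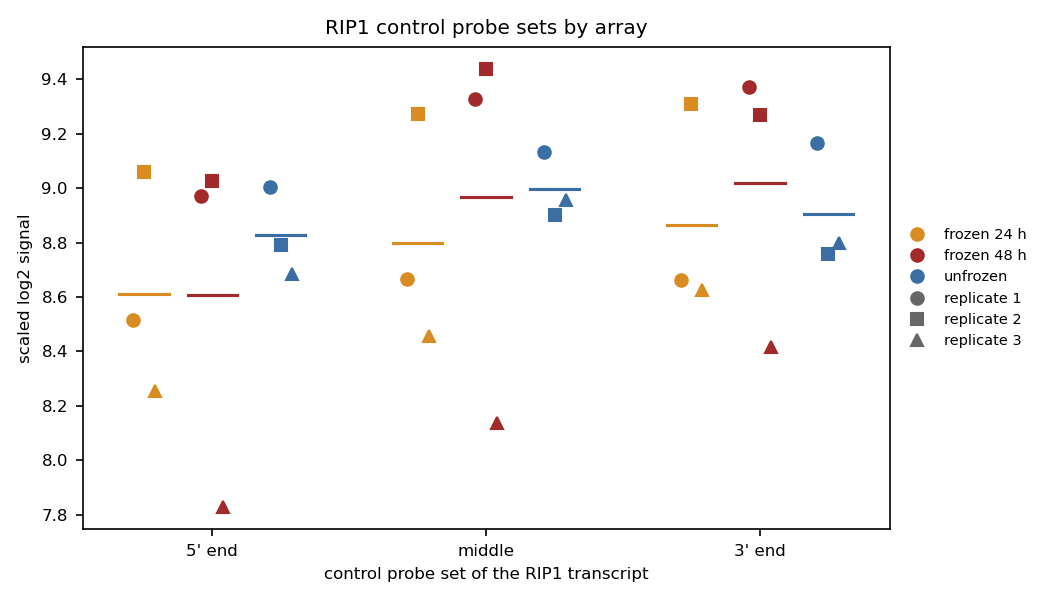
Scaled log2 signal of the 3 RIP1 control probe sets by array (colour, group; marker shape, replicate number; horizontal lines, group means of 3 arrays). The 5' mean lies 0.22 below the unfrozen mean at 48 h and the 3' mean 0.11 above it, with SDs between the frozen 48 h arrays of 0.68 and 0.52.

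Genes that build, regulate or feed the complexes were tested in the same fit. Of 92 such genes, 0 were called at 24 h and 1 was lower at 48 h, against 1.00% and 2.91% of all genes. That gene was AAC3, the ADP/ATP carrier isoform of low oxygen, with signals of 8.15, 8.25 and 7.27 in frozen 48 h arrays, against 9.37, 9.37 and 9.16 in unfrozen arrays. All 3 frozen 48 h arrays lay below the unfrozen ones. The difference was -1.41 ± 0.31 at 48 h (limma adjusted p = 0.0433), and at 24 h it was -1.15 ± 0.31 (adjusted p = 0.154), with signals of 8.36, 8.57 and 7.52. AAC3 passed at 48 h in 13 of 25 alternatives, with an adjusted p of 0.00296 to 1.00, and did not pass without scaling (-0.99), with no trend (adjusted p = 0.0572), with the ribosomal RNA signal as a covariate (-0.81), or without replicate number 1 (-1.51) or 2 (-1.56). It also did not pass without frozen 24 h replicate 1 or 2 (adjusted p = 0.0667 and 0.0566), frozen 48 h replicate 2 (-1.59) or 3 (-1.10), or unfrozen replicate 1, 2 or 3 (-1.38, -1.38 and -1.48). At 24 h AAC3 passed in 6 of 25 alternatives, with a difference of -1.47 to -0.49, nearest 0 with the ribosomal RNA signal as a covariate.

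Among regulators, HAP4, the activating subunit of the complex that switches on respiratory genes, had signals of 9.19, 8.98 and 7.92 in frozen 24 h arrays and 9.70, 9.07 and 8.38 in frozen 48 h arrays, against 9.53, 9.73 and 9.57 in unfrozen arrays. The 24 h arrays all lay below the unfrozen ones, replicate 3 by the most, and at 48 h replicate 1 overlapped. The differences were -0.91 ± 0.37 at 24 h and -0.56 ± 0.37 at 48 h (limma adjusted p = 0.389 and 0.501). Without the replicate 3 array of the frozen group compared they were -0.52 and -0.23, and with the ribosomal RNA signal as a covariate -0.38 and -0.08. HAP1, the haem-responsive activator of several subunit genes, stood at -0.68 ± 0.24 and -0.62 ± 0.24 (adjusted p = 0.302 and 0.241), and at -0.37 and -0.33 with that covariate. Of the 9 regulators 0 passed at either time. An estimate below 0 was found for 8 at 24 h and 7 at 48 h, against 52.7% and 53.0% of all genes. The list was not split by the direction in which a regulator acts.

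Isoforms and accessory genes gave estimates on both sides of 0. COX5B, the low-oxygen isoform of a complex IV subunit, stood at -0.86 ± 0.25 at 24 h and -0.99 ± 0.25 at 48 h (limma adjusted p = 0.189 and 0.0719). CYC7, the minor isoform of cytochrome c, stood at 1.26 ± 0.42 and 1.30 ± 0.42 (adjusted p = 0.263 and 0.150). STF1, a second inhibitor of the ATP synthase related to INH1, stood at 0.70 ± 0.21 and 0.86 ± 0.21 (adjusted p = 0.212 and 0.0656). For each of these 3, frozen arrays did not overlap unfrozen ones at either time, but none passed. Arrays did not overlap for 23.9% of all genes at 24 h and 22.5% at 48 h, and these 3 were named for a small p in their lists. In the 25 alternatives COX5B passed in 2 at 24 h and 4 at 48 h, CYC7 in 0 and 1, and STF1 in 0 and 2. With the ribosomal RNA signal as a covariate COX5B stood at -0.42 and -0.59, and leaving out arrays gave CYC7 0.82 to 1.59 at 24 h and 0.87 to 1.80 at 48 h. Of 5 genes in that isoform list 0 were called, and of 9 genes of cytochrome c and the inner membrane carriers AAC3 was the 1 called.

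Among assembly and expression factors, SDH5, which attaches the flavin of complex II, stood at 0.60 ± 0.21 at 24 h and 0.65 ± 0.21 at 48 h, and SDH8, another assembly factor of that complex, at 0.57 ± 0.20 and 0.65 ± 0.20. The smallest limma adjusted p of the 4 complex II assembly genes was 0.131, and their medians were 0.47 and 0.61, beside -0.02 and 0.23 for the 4 subunit genes. PET122, a translational activator of mitochondrial COX3, stood at -0.92 ± 0.23 and -0.77 ± 0.23 (adjusted p = 0.107 and 0.118), and COX10, which farnesylates haem for complex IV, at -0.50 ± 0.20 and -0.54 ± 0.20. NCA3 stood at 1.51 ± 0.62 and 1.76 ± 0.62 (adjusted p = 0.405 and 0.191), and BCS1, the AAA protein that inserts RIP1 into complex III, at 0.28 ± 0.18 and 0.45 ± 0.18. NCA3 depended on the arrays used, with 0.58 without replicate number 1 and 2.31 without number 3 at 24 h, and 0.75 and 2.78 at 48 h, where it passed without number 3 (adjusted p = 0.0182). PET122 passed in 2 of 25 alternatives at each time, and SDH8 in 2, COX10 in 1 and SDH7, a complex II assembly gene named after its values were seen, in 1 at 48 h. None of the 4 complex II, 10 complex III, 31 complex IV and 11 complex V assembly and expression genes passed at either time in the main setting. Among 11 genes of ubiquinone synthesis 0 passed, with COQ3 at 0.44 ± 0.17 and 0.50 ± 0.17 and COQ11 at -0.37 ± 0.16 and -0.48 ± 0.16. With the ribosomal RNA signal as a covariate COQ3 stood at 0.19 and 0.28.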

How the data were processed

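The 9 Affymetrix Yeast Genome 2.0 arrays were deposited with a linear intensity for every probe set. The submitters' processing notes name GCOS, whose version is not given in the sources used here. Per the labels, the authors also used GeneSpring 7.3.1 with per-chip and per-gene normalization, a step the deposited values do not show. Each array's log2 intensities were shifted to one common median over 5498 S. cerevisiae probe sets. Genes were tested where the mean exceeded 2.21, the 95th percentile of fission yeast (S. pombe) probe sets taken as background (5396 genes, gene names updated through the RefSeq R64 table). Group means over all 9 arrays were fitted with limma 3.58.1 in R 4.3.3 (two-sided, empirical Bayes with a trend, Benjamini-Hochberg over all genes), and the procedure was tested on simulated data. Single measures were compared by exact two-sided permutation tests, whose smallest p with 3 arrays against 3 is 0.1.

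The members, gene lists and alternatives were chosen with earlier results of these data known. Any member could be named. Values by array are given for the 2 members of each complex with the smallest p in a comparison and for INH1, and other genes were named if called or among the 2 smallest p of their list, with HAP4 always named. Same-numbered 24 h and 48 h arrays deviated together (correlations 0.59, 0.39 and 0.79), as judged from the data, while unfrozen arrays did not pair with frozen ones (-0.38 to 0.25). All 9 columns were used, and no pair of arrays shared more than 0.00915% of values. The number of arrays limits the precision.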

Additional observations from a re-analysis of the deposited data

Results flagged for a closer look

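Of the 7 transcripts with control probe sets at both ends, RIP1 is the only member, and only it could be flagged. It was flagged because its signal, in data that no comparison used, was shifted toward the 3' end at 48 h above its level in the unfrozen arrays. The 3' minus 5' log2 difference of RIP1 was 0.40, 0.25 and 0.59 in frozen 48 h arrays, against 0.16, -0.04 and 0.11 in unfrozen arrays, a shift of 0.33. The groups did not overlap, which was the condition for the flag and by itself fixes the exact permutation p (two-sided) at 0.1. That is the smallest p that 3 arrays against 3 allow (adjusted p = 0.9 over the 14 tests made), and it adds nothing to the flag. In frozen 24 h arrays the values were 0.15, 0.25 and 0.37, a shift of 0.18 with overlap (exact permutation p = 0.2). The other 6 transcripts, ACT1, EAF5, SPT15, SRB4, TDH1 and WBP1, overlapped at both times. Their shifts were -0.15 to 0.00 at 48 h and -0.21 (EAF5) to 0.13 (WBP1) at 24 h. The part of RNA quality in this shift was not tested.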

How the results depend on the processing

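The count of members called was 0 in each of 25 alternatives at 24 h, in 24 of 25 at 48 h and in each of 26 for 48 h against 24 h. The exception was 1 (SDH4) at 48 h without the replicate 3 arrays of both frozen groups. The members' median moved by more than the spread between arrays under a few settings. At 24 h it was 0.178 in the values as deposited, -0.442 with arrays set to the median of every probe set and 0.111 with the ribosomal RNA signal as a covariate. At 48 h it was 0.281, -0.480 and 0.047 under the same settings. The first and second by construction shift all genes (medians of all genes 0.275 and -0.345 at 24 h). In the third the covariate separates frozen from unfrozen arrays, so its part cannot be told apart from that of freezing, and the cause was not tested. Leaving out single arrays or replicate numbers gave medians of -0.293 to 0.017 at 24 h, -0.275 to 0.022 at 48 h and -0.114 to 0.131 for 48 h against 24 h. With the replicate number as a block, 0 members were called in each comparison and the medians stayed at -0.12, -0.14 and -0.00, while the calls over all genes were 113 at 24 h and 211 at 48 h, against 54 and 157 without it. No named gene that passed in any setting changed sign there.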
